A study of Mus musculus with 24 samples.

Results

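Liver mRNA was compared between alcohol-fed female (XX) mice that had received hairpin vectors against both Kdm5b and Kdm5c and then a vector against the aryl hydrocarbon receptor (AhR), and females that had received control vectors in both injections. The comparison was set by the labels and covers 6 of the 24 libraries of the series, 3 whole livers a side, each under its own number in the labels and called a mouse here. All 24 mice, the controls included, were kept for 3 weeks on the Lieber-DeCarli diet, a liquid diet that contains ethanol, so no value below comes from a mouse without alcohol. The combined group carried AAV-shKdm5b with AAV-shKdm5c as injection 1 and AAV-shAhR as injection 2, and the control group carried AAV-shControl as both; AAV is adeno-associated virus, a gene delivery vector, and sh stands for the short hairpin RNA that it expresses. For comparison, 3 further females received the Kdm5 pair followed by AAV-shControl (the Kdm5 vectors alone), 3 received AAV-shControl followed by AAV-shAhR (the AhR vector alone), and males formed the same 4 groups of 3. The study asks whether KDM5 demethylases act differently in the sexes in alcohol-associated liver disease. The labels give neither strain, age, vector promoter, dose nor the interval between injections, and no batch, cage or hour of collection.

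KDM5B and KDM5C remove methyl groups from lysine 4 of histone H3, a mark that sits at active promoters; Kdm5c lies on the X chromosome and escapes X inactivation. The aryl hydrocarbon receptor is a ligand-activated transcription factor that is known in liver for inducing enzymes of foreign compound metabolism, Cyp1a2 among them. Mouse liver expresses many sex-biased genes under the control of pulsatile growth hormone, among them sulfotransferases, cytochromes P450, organic anion transporters and major urinary proteins. It also carries a circadian clock, in which the heterodimer of BMAL1 (encoded by Arntl) and CLOCK drives its own repressors and a set of output factors.

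Values are FPKM, fragments counted on a gene's transcript scaled to its length and to the library's mapped fragments, for 2372 genes. Genes that reached 1 FPKM in 3 or more of the 24 libraries were tested, 2299 in all, and 73 did not qualify. Each gene was tested with limma on log2(FPKM + 0.5), with the spread taken from all 8 groups, and a gene was said to rise or fall when its Benjamini-Hochberg adjusted p over the 2299 genes was under 0.05. A ± after FPKM is the SD of 3 mice, and a ± after a log2 change is its standard error. Fold changes are on the log2(FPKM + 0.5) scale, on which changes of weakly expressed genes come out smaller than they are. Read depth is unknown, since FPKM removes it. The labels number the livers one by one and say nothing more of their source, so p-values measure only the spread between these samples.

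Of the targeted genes, Kdm5c (chrX:152233198-152279102, build GRCm38.p6) was in the table, and Kdm5b and Ahr were not analysed here. Kdm5c stood at 11.1, 9.32 and 10.6 FPKM with control vectors and at 10.2, 12.5 and 9.37 FPKM in the mice labelled with the combined vectors. The groups overlapped, and the log2 change was 0.039 ± 0.11, adjusted p = 0.84, with a 95% interval of -0.19 to 0.27. Kdm5c mRNA was 9.63 ± 0.50 FPKM with the Kdm5 vectors alone and 12.7 ± 0.56 FPKM with the AhR vector alone. Whole-liver Kdm5c mRNA was thus not detectably lower with the combined vectors and did not bear out the labels in these females. Every direction below refers to mice as labelled. The 5 hepatocyte markers tested were present at high levels, 1 of them rising and none falling.

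In livers given the combined vectors the fetal genes Afp and Igf2, the hydroxysteroid sulfotransferases Sult2a1, Sult2a3 and Sult2a5, the clock output factors Dbp and Tef and the peroxisomal oxidase Acox2 were higher than with control vectors. Transcripts of the organic anion transporter Slco1a1, the P450 Cyp3a44, the major urinary protein gene Mup3, and enzymes of conjugation such as Nat8f1 and Gsta3 were lower, as were the clock genes Cry1 and Nfil3. The largest rise was 30.3-fold (Afp, n = 3 a group) and the largest fall 4.78-fold (Slco1a1). Under the combined vectors 266 of 2299 genes passed (11.6%), 179 higher (7.79%) and 87 lower (3.78%). The changes were mostly small: the median log2 change of the genes that rose was 0.523 (1.44-fold), that of the genes that fell was -0.464 (1.38-fold), and 27 of the 266 changed by at least 1 on the log2 scale. The median over all genes tested was 0.0216. In 254 of the 266 genes the values of the 2 groups did not overlap, against 754 of all 2299 genes (32.8%), 463 of them higher (20.1%). The count rested on single mice. It was 44 without control mouse 1, 140 without combined-vector mouse 1, 105 without combined-vector mouse 2 and 77 without combined-vector mouse 3, and 44, 131, 101 and 74 of these were among the 266. It was 29 when the spread was taken from the 12 female libraries and 21 from the 6 compared libraries alone. Of 75 named genes that passed, 16 passed in each of the 6 fits that left out 1 library, among them Afp, Igf2, Sult2a3, Dbp, Tef, Nab2 and Acox2, which rose, and Cyp3a44, Nat8f1, Akr1c19, Mup3, Ces2a, Ces2c, Hist2h2aa1 and Rps27, which fell.

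Genes that rose had longer transcripts than genes that fell. The median of the longest coding transcript was 4878 nucleotides for the genes that rose, 1828 for those that fell and 2698 for the 2265 tested genes with a known length. With genes put in 4 groups of equal size by length, 12 of the shortest group rose and 38 fell, with a median log2 change of -0.132 over the group. The next groups had 19 and 29 calls with a median of -0.0601, then 52 and 17 with 0.0928, and in the longest group 96 rose and 3 fell with a median of 0.258. The same tilt, taken as the median of the longest group minus that of the shortest and relative to all 12 females, was 0.132, 0.305 and 0.231 in the combined-vector mice and -0.216, -0.238 and -0.035 in the controls. It was 0.0951, 0.19 and 0.0223 with the AhR vector alone, and -0.0707, -0.126 and -0.299 with the Kdm5 vectors alone, so that both groups given the AhR vector stood above both groups that were not. In males relative to all 12 males it was -0.219, -0.127 and -0.161 with the combined vectors and 0.14, -0.0324 and -0.0841 in controls, the other way round. The part of this tilt in single gene changes was not tested. An adjustment chosen after the data were seen, which removed a smooth curve of length from each library, left 152 genes, 77 higher and 75 lower, of which 99 were among the 266. Of the 16 genes above, all but Rps27 still passed with it, as did 42 of the 75 named genes.

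**Figure D1:**
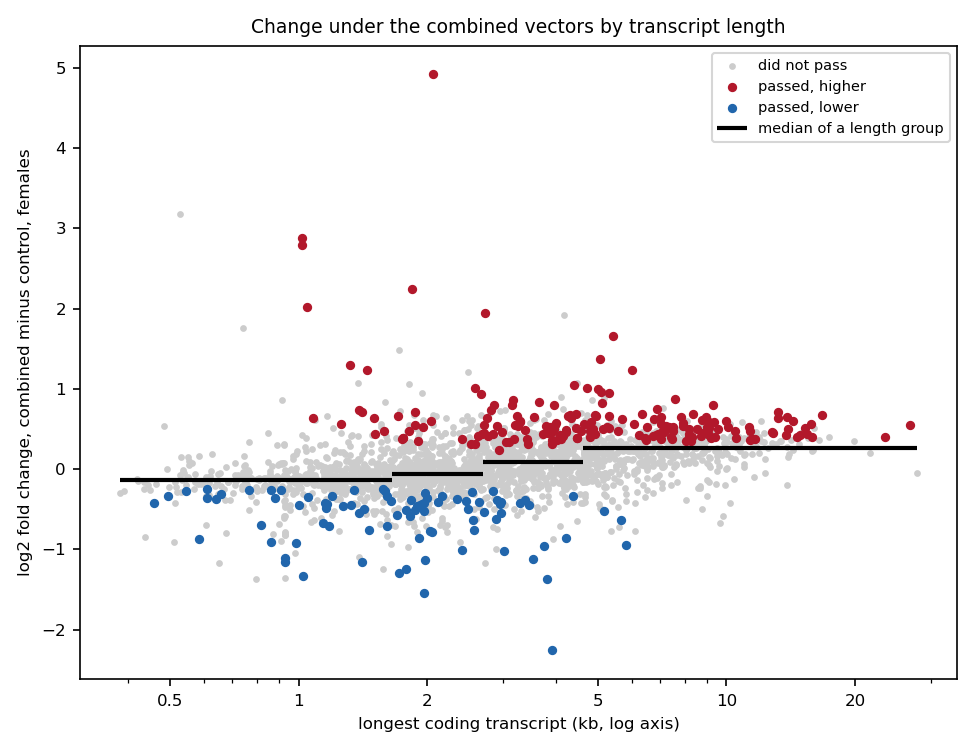
Each point is a gene, with the length of its longest coding transcript in kilobases on a log axis and its log2 change in females under the combined vectors; red genes passed higher, blue genes passed lower, and black lines are the medians of the 4 length groups. The medians climb from -0.132 in the shortest group to 0.258 in the longest, where 3 genes fell.

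A gene of fetal liver, Afp, stood at the head of the change, and another, Igf2, rose by less. Afp (chr5:90490714-90508907) encodes alpha-fetoprotein, the main serum protein of the fetus, which is silenced in liver after birth. It was at 0.05, 0.23 and 0.33 FPKM in controls and at 16.0, 25.2 and 21.4 FPKM with the combined vectors, a 30.3-fold difference on the scale used (log2 change 4.92 ± 0.29, adjusted p = 5.95e-10). Every combined-vector mouse was far above every control. The single vectors were also high, 8.22 ± 2.22 FPKM with the Kdm5 vectors and 15.8 ± 5.23 FPKM with the AhR vector, each above every control. Igf2 (chr7:142650768-142666816), a fetal growth factor, stayed low throughout: 0.44, 0.16 and 0.19 FPKM in controls and 0.79, 1.17 and 1.11 FPKM with the combined vectors, without overlap (log2 change 1.01 ± 0.16, adjusted p = 0.0021). Igf2 was 1.10 ± 0.064 FPKM with the AhR vector alone and 0.60 ± 0.092 FPKM with the Kdm5 vectors alone. These 2 were the risers among the 5 fetal liver genes tested (40%, against 11.6% of all genes called), whose median was 0.273. Both had been known from earlier results of these data. Zbed6, which encodes a repressor of Igf2, was also higher, at 3.55, 5.02 and 5.13 FPKM against 2.57, 1.87 and 1.67 FPKM (1.00 ± 0.29, adjusted p = 0.0336), a call that held in 1 of 6 fits without 1 library.

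**Figure D2:**
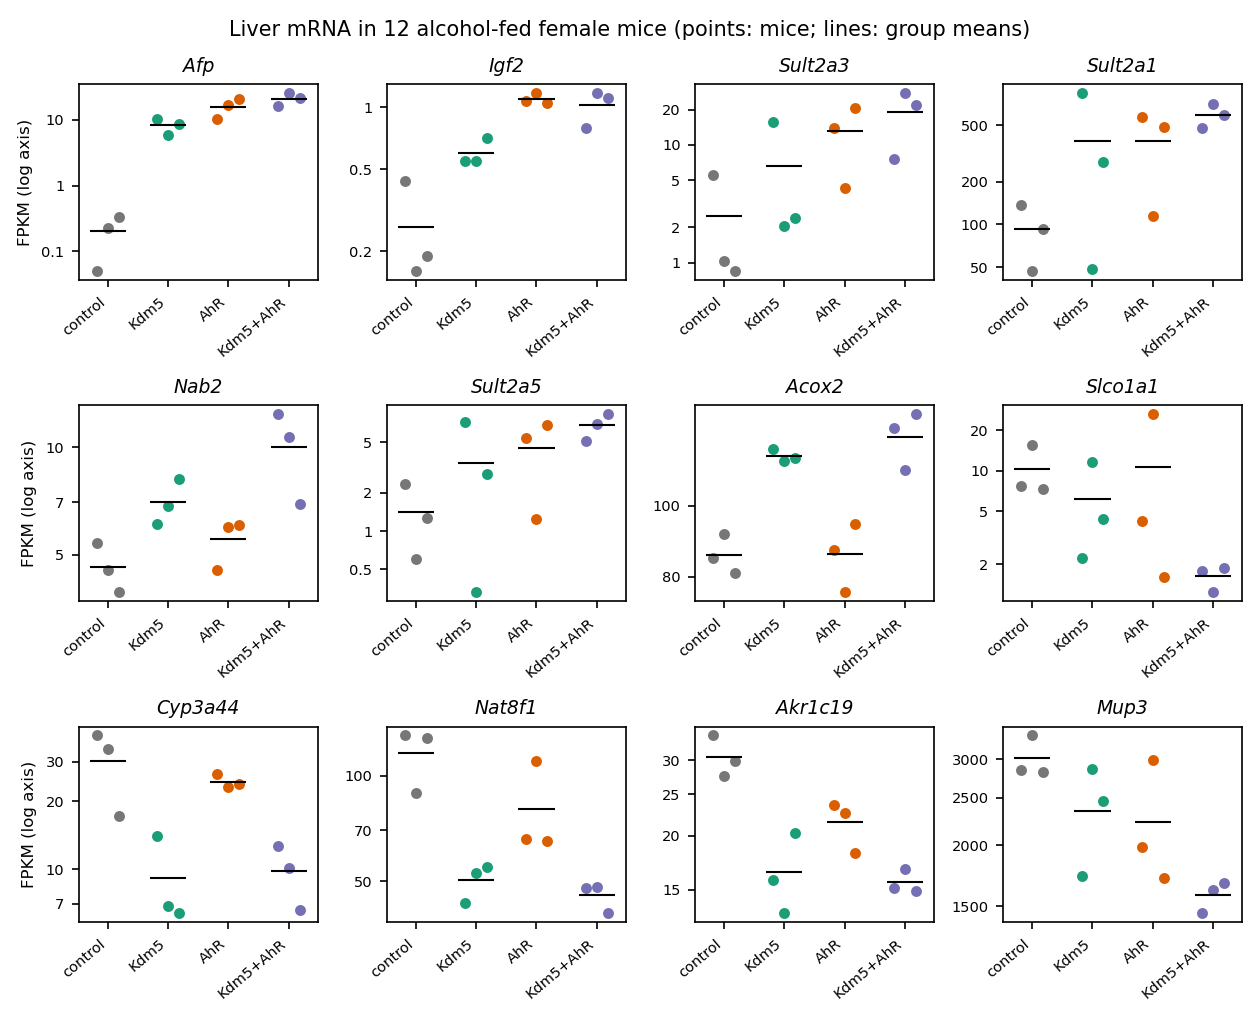
FPKM on log axes in the 12 females, 3 mice a group, for genes that rose (top row and the first 3 of the middle row) or fell under the combined vectors; points are mice and lines group means. In each of these 12 genes the 3 combined-vector mice lie on 1 side of the 3 controls, and Afp is above 5 FPKM in all 9 mice that received a Kdm5 or AhR vector.

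Other genes with large rises have no common role that the lists describe. Nab2, a corepressor of the EGR transcription factors, was at 5.40, 4.52 and 3.92 FPKM in controls and 12.4, 10.7 and 6.92 FPKM with the combined vectors (1.01 ± 0.18, adjusted p = 0.00276). Its single-vector means were 7.02 ± 1.05 FPKM for Kdm5 and 5.52 ± 0.86 FPKM for AhR, both between control and combined. Cntnap1, a protein of axon-glia junctions, was 2.73 ± 0.90 FPKM against 0.51 ± 0.12 FPKM (1.65 ± 0.45, adjusted p = 0.0281), and Aqp4, a water channel, was 1.98 ± 1.22 FPKM against 0.41 ± 0.28 FPKM (1.38 ± 0.31, adjusted p = 0.0108). Both were low, and passed in 2 and 4 of 6 fits without 1 library. The gene 1810046K07Rik was at 5.73, 5.20 and 4.62 FPKM against 1.31, 2.84 and 1.54 FPKM (1.29 ± 0.28, adjusted p = 0.00944), with the Kdm5 vectors alone at a similar 5.43 ± 0.13 FPKM and the AhR vector alone at 2.18 ± 0.90 FPKM. Cgref1 and Adam11, the remaining large rises, had log2 changes of 1.23 ± 0.38 and 0.96 ± 0.29 and each passed in 1 of 6 such fits.

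Clock genes moved in both directions. Of 9 core clock genes tested 2 rose and 2 fell (median log2 change 0.19), and of 9 output genes 2 rose and 1 fell (median 0.276), against 11.6% called among all genes. Clock genes had been known from earlier results of these data, so these counts are no independent support. The output factors Dbp and Tef, bZIP activators that bind the D-box, rose. Dbp (chr7:45705100-45710203) was at 2.41, 3.34 and 1.67 FPKM in controls and at 9.47, 17.0 and 14.2 FPKM with the combined vectors. No combined-vector mouse came near the controls, and the single-vector means were 3.23 ± 1.37 FPKM and 4.11 ± 2.22 FPKM for Kdm5 and AhR. Tef (chr15:81802673-81826863) was at 10.9, 15.3 and 9.87 FPKM and 22.0, 30.2 and 23.7 FPKM. Their repressor counterpart Nfil3 (chr13:52967209-52982878) went from 15.2, 14.2 and 16.1 FPKM down to 10.3, 9.45 and 6.70 FPKM (log2 change -0.77 ± 0.19, adjusted p = 0.0171). Nfil3 was at or above control level with either single vector, 19.2 ± 3.45 FPKM and 17.6 ± 4.39 FPKM.

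In the core loop Nr1d1, the REV-ERB alpha repressor, was at 6.46, 9.20 and 22.7 FPKM in controls and 44.4, 51.6 and 38.3 FPKM with the combined vectors. Control mouse 3 was the nearest to the combined group, which lay wholly above. Per3, of the period family, rose from 0.47, 0.58 and 0.45 FPKM to 1.32, 2.94 and 1.58 FPKM. Cry1, a cryptochrome repressor of BMAL1 and CLOCK, fell from 9.16, 7.72 and 5.60 FPKM to 3.79, 4.06 and 2.49 FPKM, and Arntl from 10.6, 10.9 and 9.09 FPKM to 8.46, 5.72 and 6.51 FPKM. Arntl passed narrowly (adjusted p = 0.0442) and in 2 of 6 fits without 1 library, Per3 in 3, Cry1 in 4 and Nr1d1 in 5. Per1, Npas2, Nr1d2, Ciart and Bhlhe40 did not pass, with log2 changes of -0.31, -0.44, 0.61, 0.95 and 0.19. Among outputs, Usp2, Wee1, Noct, Tspan4, Por and Upp2 did not pass, between -0.59 and 0.54. The hour at which each mouse was killed is not in the labels, so that an hour of collection and the vectors cannot be told apart in these genes. With the length adjustment Arntl no longer passed (adjusted p = 0.0656), and the other 6 did.

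The promoters of 4 of the 7 changed clock genes are printed because they hold the letters through which the loop is known to act: CACGTG and CACGTT are E-box forms bound by BMAL1 and CLOCK, TTATGTAA is a D-box form, and TAGGTCA is the core of the element shared by REV-ERB and ROR. Sequences are RefSeq's for GRCm38.p6, up to 250 bases before a start of the gene and outside its annotated span, 5′ to 3′ on the strand of the gene, with any match on either strand in capitals. The regions are chr15:81802423-81802672, plus strand (Tef), chr4:151044708-151044915, minus strand (Per3), chr11:98775378-98775627, minus strand (Nr1d1) and chr10:85185055-85185304, minus strand (Cry1).
Tef: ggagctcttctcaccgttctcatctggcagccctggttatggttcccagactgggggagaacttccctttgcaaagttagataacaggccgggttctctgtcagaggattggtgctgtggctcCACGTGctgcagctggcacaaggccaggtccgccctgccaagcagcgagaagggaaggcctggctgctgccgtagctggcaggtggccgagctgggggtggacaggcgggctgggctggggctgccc
Per3: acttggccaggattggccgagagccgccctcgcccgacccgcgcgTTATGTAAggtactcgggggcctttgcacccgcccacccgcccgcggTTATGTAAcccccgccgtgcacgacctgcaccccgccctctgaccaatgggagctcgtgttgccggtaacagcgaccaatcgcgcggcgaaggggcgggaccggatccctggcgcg
Nr1d1: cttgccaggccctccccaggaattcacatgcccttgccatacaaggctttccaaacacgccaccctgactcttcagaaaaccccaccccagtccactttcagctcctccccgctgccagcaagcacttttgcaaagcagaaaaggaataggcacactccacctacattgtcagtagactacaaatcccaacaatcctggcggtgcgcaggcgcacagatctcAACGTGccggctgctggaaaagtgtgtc
Cry1: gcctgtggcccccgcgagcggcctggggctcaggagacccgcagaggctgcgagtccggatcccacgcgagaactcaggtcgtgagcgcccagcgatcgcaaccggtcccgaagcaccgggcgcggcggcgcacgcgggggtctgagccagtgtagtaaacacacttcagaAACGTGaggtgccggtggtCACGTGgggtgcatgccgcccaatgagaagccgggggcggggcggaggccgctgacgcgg
Tef has CACGTG 127 bases before this start, and again 138 bases before a second annotated start. Per3 has TTATGTAA at 205 and 158 bases before its start. Nr1d1 has CACGTT, read here as its reverse complement, at 28 bases, and Cry1 has it at 79 bases and CACGTG at 60. In the windows not printed, Nfil3 has TAGGTCA at 12 bases, and those of Dbp and Arntl hold none of these letters. Of 32851 mouse promoter windows of 250 bases, 6.02% hold CACGTG, 3.85% CACGTT, 0.819% TTATGTAA and 2.23% TAGGTCA. A match describes the sequence and is no measurement of binding, and genes that rose and a gene that fell both hold E-box letters.

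**Figure D3:**
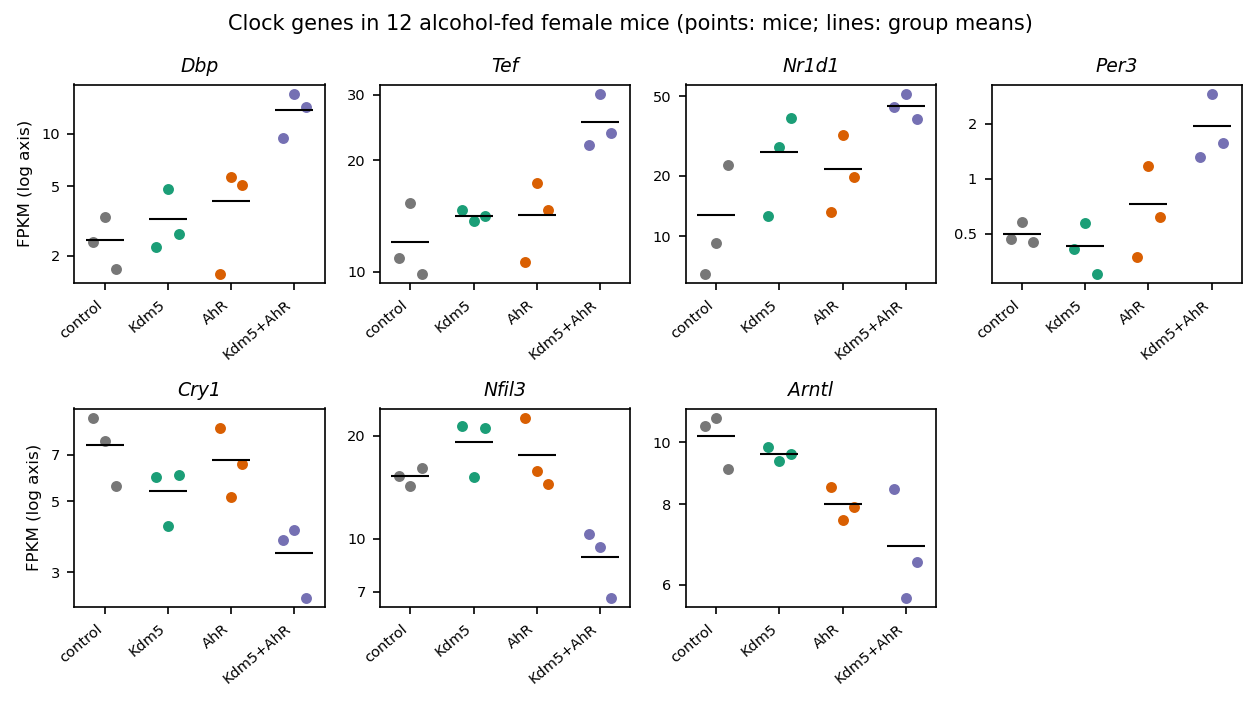
FPKM on log axes of the 7 clock genes that passed, in the 12 females, 3 mice a group; points are mice and lines group means. Dbp, Tef, Nr1d1 and Per3 are highest and Cry1, Nfil3 and Arntl lowest, by group mean, with the combined vectors, and Nfil3 is below control level only there.

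After Afp the largest rises were those of Sult2a3 and Sult2a1, hydroxysteroid sulfotransferases of the Sult2a family, which female mouse liver expresses above male liver. Sult2a1 (chr7:13796246-13837410) was at 138, 46.8 and 92.5 FPKM in controls and 475, 712 and 597 FPKM with the combined vectors. The groups were apart, while each single-vector group spread over both: 841, 48.9 and 278 FPKM with the Kdm5 vectors and 572, 114 and 485 FPKM with the AhR vector. Sult2a3 (chr7:14067555-14123048) was at 5.61, 1.03 and 0.85 FPKM and 7.60, 27.4 and 21.8 FPKM, and Sult2a5 (chr7:13623967-13670807) at 2.36, 0.60 and 1.27 FPKM and 5.11, 6.96 and 8.31 FPKM. Sult2a2 was at 176, 100.2 and 169 FPKM and 414, 592 and 479 FPKM without passing (1.76 ± 0.58, adjusted p = 0.0532). Sult2a8, another hepatic member, had a log2 change of -0.70 ± 0.25 and did not pass. The family thus had 3 of 5 higher (60%, against 11.6% of all genes called), with a median log2 change of 2.02. Sult2a genes had been known from earlier results of these data, so this share is no independent support. Sult2a1, Sult2a3 and Sult2a5 passed in 4, 6 and 1 of 6 fits without 1 library. These copies are near-identical in sequence, so reads may be shared among them, and the counting step does not say how. The 3 calls may therefore not be separate.

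Of 31 female-biased genes tested 4 rose, the 3 Sult2a genes and Cyp2b13, and 1 fell, with a median log2 change of 0.0811. Cyp2b13, a cytochrome P450 of female liver, was at 180.2 ± 19.3 FPKM against 113 ± 31.5 FPKM (0.71 ± 0.22, adjusted p = 0.0418) and passed in 1 of 6 fits without 1 library. Cyp3a44 (chr5:145773983-145805891), another female P450, went down from 39.2, 34.0 and 17.3 FPKM to 12.7, 10.1 and 6.59 FPKM (-1.54 ± 0.28, adjusted p = 0.00344). It was 9.10 ± 4.31 FPKM with the Kdm5 vectors alone and 24.4 ± 1.64 FPKM with the AhR vector alone. Of 29 male-biased genes none rose and 4 fell, with a median of -0.267. In either direction 16.1% of the female-biased and 13.8% of the male-biased genes passed, against 11.6% of all genes. The male-biased calls were all falls, which were 3.78% of all genes, and 23 of the 29 had log2 changes below 0. With the length adjustment 3 of the 29 fell. The largest fall of any named gene was that of Slco1a1 (chr6:141907281-141946962), an organic anion transporter of male liver, from 7.69, 15.7 and 7.33 FPKM to 1.79, 1.24 and 1.88 FPKM (-2.26 ± 0.62, adjusted p = 0.0292). Single-vector mice ranged widely, with 4.21, 26.4 and 1.62 FPKM under the AhR vector, and the call held in 1 of 6 fits without 1 library. Ugt2b1, a glucuronosyltransferase, and Cyp2f2, a P450, were the other male-biased genes that fell beside Mup3, by log2 changes of -0.75 ± 0.17 and -0.51 ± 0.15.

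Of 19 major urinary protein genes, whose products carry pheromones, 2 fell and 17 did not pass, with a median log2 change of -0.614. That is 10.5%, against 11.6% of all genes called in either direction and 3.78% that fell. Log2 changes were below 0 in 17 of the 19. With the length adjustment 1 of the 19 fell. Mup3 (chr4:62083476-62087317) was at 2853, 3355 and 2827 FPKM in controls and 1452, 1622 and 1673 FPKM with the combined vectors (-0.93 ± 0.20, adjusted p = 0.00938), and all 6 fits without 1 library kept it. Mup16 (chr4:61515592-61519627) was at 523, 364 and 187 FPKM and 140.2, 178 and 140.4 FPKM (-1.11 ± 0.31, adjusted p = 0.0306), and did not pass with the length adjustment (adjusted p = 0.0913). Gm21320 (chr4:60817586-60821597), a predicted gene between other Mup genes on chromosome 4, was among the most abundant transcripts and fell from 18528, 15769 and 9263 FPKM to 7769.7, 7899.9 and 6663 FPKM (-0.91 ± 0.23, adjusted p = 0.0189). It passed in 4 of 6 fits without 1 library and not with the length adjustment (adjusted p = 0.0735). Control mouse 3 was the lowest control for Mup16 and Gm21320. The Mup genes are near-identical copies and their separate levels are uncertain.

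Enzymes of phase II conjugation were lower where they passed. Of 22 phase II enzymes other than Sult2a none rose and 6 fell (27.3% passed, against 11.6% of all genes), with a median log2 change of -0.33: Sult5a1, Ugt2a3, Ugt2b1, Ugt2b36, Gsta3 and Gstm6. With the length adjustment 3 of the 22 fell and none rose. Gsta3, an abundant glutathione transferase, was at 879, 609 and 824 FPKM in controls and 498, 444 and 407 FPKM with the combined vectors (-0.76 ± 0.17, adjusted p = 0.0118). Sult5a1 was at 10.7, 12.3 and 5.82 FPKM and 3.03, 3.63 and 3.09 FPKM (-1.37 ± 0.39, adjusted p = 0.0322), and Ugt2b36 had a log2 change of -0.46 ± 0.13. Nat8f1 (chr6:85910154-85915914), of the N-acetyltransferase 8 family, was at 131, 89.5 and 128 FPKM and 47.8, 48.2 and 40.5 FPKM (-1.33 ± 0.22, adjusted p = 0.00233). The Kdm5 vectors alone gave a like level of 50.2 ± 6.13 FPKM, and the AhR vector alone 80.5 ± 26.1 FPKM. Akr1c19, an aldo-keto reductase, fell from 34.3, 27.7 and 29.9 FPKM to 15.1, 16.8 and 14.9 FPKM (-0.95 ± 0.19, adjusted p = 0.00631). Both genes passed in every fit without 1 library.

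Some carboxylesterases, which hydrolyse drugs and lipid esters, were named for the size of their fall or their low p and form no list here. Ces2c was at 7.70, 10.5 and 7.69 FPKM in controls and 3.07, 3.80 and 4.06 FPKM with the combined vectors (-1.13 ± 0.24, adjusted p = 0.00821). Ces2a was at 91.0 ± 5.64 FPKM and 63.3 ± 1.91 FPKM (-0.52 ± 0.11, adjusted p = 0.0103), and Ces3b at 66.3 ± 23.0 FPKM and 31.9 ± 7.42 FPKM (-1.004 ± 0.32, adjusted p = 0.0455). Ces3b passed in 1 of 6 fits without 1 library and not with the length adjustment (adjusted p = 0.0773). Of 21 target genes of the foreign compound receptors CAR and PXR, 1 rose (Cyp2b13) and 3 fell (Cyp3a44, Ces2a and Cyp2c54), with a median log2 change of -0.0651. The share that passed was 19%, against 11.6% of all genes. None of 6 AhR target genes passed in limma, and their median was 0.0228; 1 of them, Cyp1a2, had an unadjusted p under 0.05. Cyp1a2, the classical liver target, was at 125, 141 and 142 FPKM in controls and 85.8, 102 and 79.9 FPKM with the combined vectors (-0.61 ± 0.22, adjusted p = 0.0759). All 3 combined-vector mice were below all 3 controls, and the 2 groups did not overlap in 32.8% of all genes tested. None of 10 enzymes of ethanol and aldehyde oxidation passed in limma (median 0.00505, 2 with an unadjusted p under 0.05): Cyp2e1, the ethanol-induced P450, had a log2 change of 0.043 ± 0.14, and Adh1, the main alcohol dehydrogenase, one of -0.52 ± 0.23. Rnf125, a ubiquitin ligase, fell from 131, 128 and 77.5 FPKM to 54.7, 33.5 and 63.4 FPKM (-1.15 ± 0.24, adjusted p = 0.00743), and was as low with either single vector, 50.9 ± 11.6 FPKM and 56.0 ± 2.76 FPKM. Nox4, an oxidase that makes hydrogen peroxide, was at 5.64 ± 0.81 FPKM and 2.65 ± 0.24 FPKM (-0.95 ± 0.28, adjusted p = 0.0349).

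Some genes of fatty acid oxidation rose. Of 22 tested members of the list for PPAR alpha, the fasting-response receptor, and for beta-oxidation, 4 rose and none fell, with a median log2 change of 0.209 (0.22 after the length adjustment, with 3 higher). The share that passed was 18.2%, against 11.6% of all genes. Hsd17b4, the bifunctional enzyme of peroxisomal oxidation, was at 178 ± 10.5 FPKM in controls and 242 ± 20.8 FPKM with the combined vectors (0.44 ± 0.10, adjusted p = 0.0123). Cpt1a, which admits fatty acids to mitochondria, was at 92.5, 141 and 91.7 FPKM and 166, 154 and 194 FPKM, and Hadha, of the trifunctional protein, at 122, 117 and 134 FPKM and 146, 164 and 172 FPKM. Cpt1a and Hadha did not pass with the length adjustment (adjusted p = 0.0761 and 0.0735). Of 12 genes of fatty acid and triglyceride synthesis 1 fell, the desaturase Fads1 (-0.45 ± 0.12, adjusted p = 0.0292), and the median was -0.162. That share, 8.33%, was below the 11.6% of all genes.

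Bile acid genes were split. Of 16 tested 2 rose and 2 fell (median log2 change -0.125), 25% against 11.6% of all genes. Acox2 (chr14:8225511-8259019), the peroxisomal oxidase that shortens the bile acid side chain, rose from 84.8, 91.5 and 80.8 FPKM to 128, 112 and 134 FPKM (0.53 ± 0.089, adjusted p = 0.00215). It was 117 ± 2.28 FPKM with the Kdm5 vectors alone and at control level, 85.8 ± 9.18 FPKM, with the AhR vector alone. Hsd17b4, of the same pathway, was the other riser. Cyp2c70, which makes muricholic acids in mice, fell from 302, 138 and 216 FPKM to 93.8, 80.6 and 80.0 FPKM (-1.30 ± 0.37, adjusted p = 0.0336), and Hsd3b7 by a log2 change of -0.38 ± 0.12. Neither fall passed with the length adjustment (adjusted p = 0.0658 and 0.078). Cyp7a1, which catalyses the first step from cholesterol to bile acids, was at 5.57, 17.7 and 1.86 FPKM in controls and 24.4, 26.2 and 20.7 FPKM with the combined vectors, without overlap, but did not pass (1.92 ± 0.68, adjusted p = 0.0667). Groups without overlap were seen in 32.8% of all genes tested. Of 12 transporters Slc10a1, the bile salt importer, rose (612 ± 53.7 FPKM to 806 ± 88.6 FPKM, 0.39 ± 0.12, adjusted p = 0.0385) and Slco1a1 fell, 16.7% of the list.

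All 7 members tested of the cholesterol synthesis list had log2 changes below 0 (median -0.652), and 1 passed. The synthesis enzymes Fdps and Cyp51 were at 59.5, 14.6 and 47.1 FPKM and 24.7, 6.38 and 14.3 FPKM in controls, where mouse 2 was the lowest, and did not pass (-1.09 ± 0.46, adjusted p = 0.118 for Fdps and -0.87 ± 0.39, adjusted p = 0.138 for Cyp51). Of 20 genes of lipoprotein handling 3 rose, Apob, Apon and Lrp1, and 1 fell, Lipc (median 0.0492). The share that passed was 20%, against 11.6% of all genes. Apob, the structural protein of VLDL and LDL, was at 382, 418 and 466 FPKM in controls and 544, 637 and 611 FPKM with the combined vectors (0.50 ± 0.11, adjusted p = 0.00953). Apob has a long transcript and did not pass with the length adjustment (adjusted p = 0.229), nor did Lrp1 (0.776), while Apon did (0.00712). Of 12 gluconeogenesis genes Pcx and Slc2a2 rose (16.7% of the list), by log2 changes of 0.41 ± 0.10 and 0.47 ± 0.13, and neither passed with the length adjustment (0.12 and 0.13).

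Several lists had nearly all members on 1 side of 0, and these lists differ in transcript length. Of 40 respiratory chain subunits, encoded by short transcripts with a median of 1025.5 nucleotides, 38 had log2 changes below 0 with a median of -0.103. Ndufa4 and Cox4i1 fell, by -0.36 ± 0.086 and -0.26 ± 0.08, and after the length adjustment the median was 0.0165 and none passed. All 6 ribosomal protein genes tested were below 0 (median -0.239, and -0.0196 after the adjustment); Rps27 fell from 664, 721 and 638 FPKM to 495, 519.6 and 490.3 FPKM (-0.43 ± 0.092, adjusted p = 0.00944), and had an adjusted p of 0.189 after it. All 23 proteasome subunits tested were below 0 (median -0.165, and -0.0774 after it), with Psmd11 falling (-0.27 ± 0.082, adjusted p = 0.0419), also after it. In the other direction all 12 histone modifiers tested, with a median transcript of 9339.5 nucleotides, were above 0 (median 0.302, and -0.0161 after it). Ash1l, a histone methyltransferase, rose (0.38 ± 0.12, adjusted p = 0.0441), and after the adjustment its adjusted p was 0.857. Before the adjustment 5% of the respiratory chain, 16.7% of the ribosomal, 4.35% of the proteasome and 8.33% of the histone modifier list passed. The share over all genes was 11.6%.

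Of 14 hepatocyte transcription factors 5 rose and none fell (median log2 change 0.162, and 0.0624 with 1 riser after the length adjustment). The share that passed was 35.7%, against 11.6% of all genes. Prox1 was at 17.6, 16.7 and 18.0 FPKM in controls and 23.0, 33.4 and 23.6 FPKM with the combined vectors (0.58 ± 0.14, adjusted p = 0.0178). Zbtb20, a zinc finger repressor of Afp after birth, was at 1.91, 2.29 and 2.69 FPKM and 3.17, 3.72 and 3.84 FPKM (0.55 ± 0.15, adjusted p = 0.0287), in the same direction as Afp. Nfib, Cebpa and Onecut1 were the others, and Cebpa was the riser that passed after the length adjustment (adjusted p = 0.0299). Of 15 acute phase genes Crp, C-reactive protein, fell (258 ± 50.5 FPKM to 172 ± 7.61 FPKM, -0.57 ± 0.13, adjusted p = 0.0127), and of 11 interferon-stimulated genes Mavs, the mitochondrial antiviral adaptor, rose (0.33 ± 0.10, adjusted p = 0.0356). These single calls were 6.67% and 9.09% of their lists, below the 11.6% of all genes. Rgn, a pericentral gene that encodes regucalcin, fell from 639, 462 and 439.9 FPKM to 336, 301 and 294 FPKM (-0.71 ± 0.16, adjusted p = 0.0123). It was the 1 of 18 pericentral genes that passed (5.56%), and Cyp2f2, which fell, the 1 of 11 periportal genes (9.09%). Both shares were below the 11.6% of all genes. Hist2h2aa1, a histone H2A gene, fell from 73.5, 77.4 and 47.5 FPKM to 33.2, 38.1 and 34.8 FPKM (-0.86 ± 0.13, adjusted p = 0.00138).

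Marker genes of other liver cells were counted beside these changes; in bulk RNA fewer cells of a type and less RNA per cell cannot be told apart. Of 10 stellate cell and matrix genes 4 rose and none fell (median log2 change 0.342), 40% against 11.6% of all genes. Their summed level was 444.58 to 553.22 FPKM in controls and 608.07 to 669.23 FPKM with the combined vectors, without overlap. Dcn, decorin of the matrix, was at 114, 109 and 118 FPKM and 161, 140.3 and 144 FPKM (0.39 ± 0.12, adjusted p = 0.0442); Fn1 (fibronectin), Postn and Pdgfra were the other risers. After the length adjustment the median was 0.153 and Dcn was the 1 riser, although Dcn passed in 0 of 6 limma fits without 1 library (adjusted p up to 0.135). Of 10 endothelial genes Gpr182 rose (0.50 ± 0.16, adjusted p = 0.0463), 10% against 11.6% of all genes, and it passed in 1 of 6 fits without 1 library. The endothelial median was 0.286, and the sums were 140.3 to 163.83 FPKM in controls and 178.12 to 198.54 FPKM with the combined vectors. After the length adjustment that median was 0.0542 and none of the 10 passed. Of 11 Kupffer cell and macrophage genes Cd163, a scavenger receptor for haemoglobin, rose from 4.66, 5.48 and 5.25 FPKM to 7.70, 8.43 and 9.51 FPKM (0.68 ± 0.19, adjusted p = 0.0292), while the sums of 562.3 to 634.2 FPKM and 507.22 to 689.5 FPKM overlapped. Cd163 passed in 3 of 6 fits without 1 library and not with the length adjustment (adjusted p = 0.106). It made up 9.09% of its list, below the 11.6% of all genes. All 5 antigen-presenting genes tested were below 0 (median -0.514, sums of 209.77 to 240.38 FPKM and 132.87 to 190.96 FPKM), but none passed in limma, and 3 of them, Cd74, H2-Aa and H2-Ab1, had an unadjusted p under 0.05. The part of these cell markers in the other changes was not tested.

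**Figure D4:**
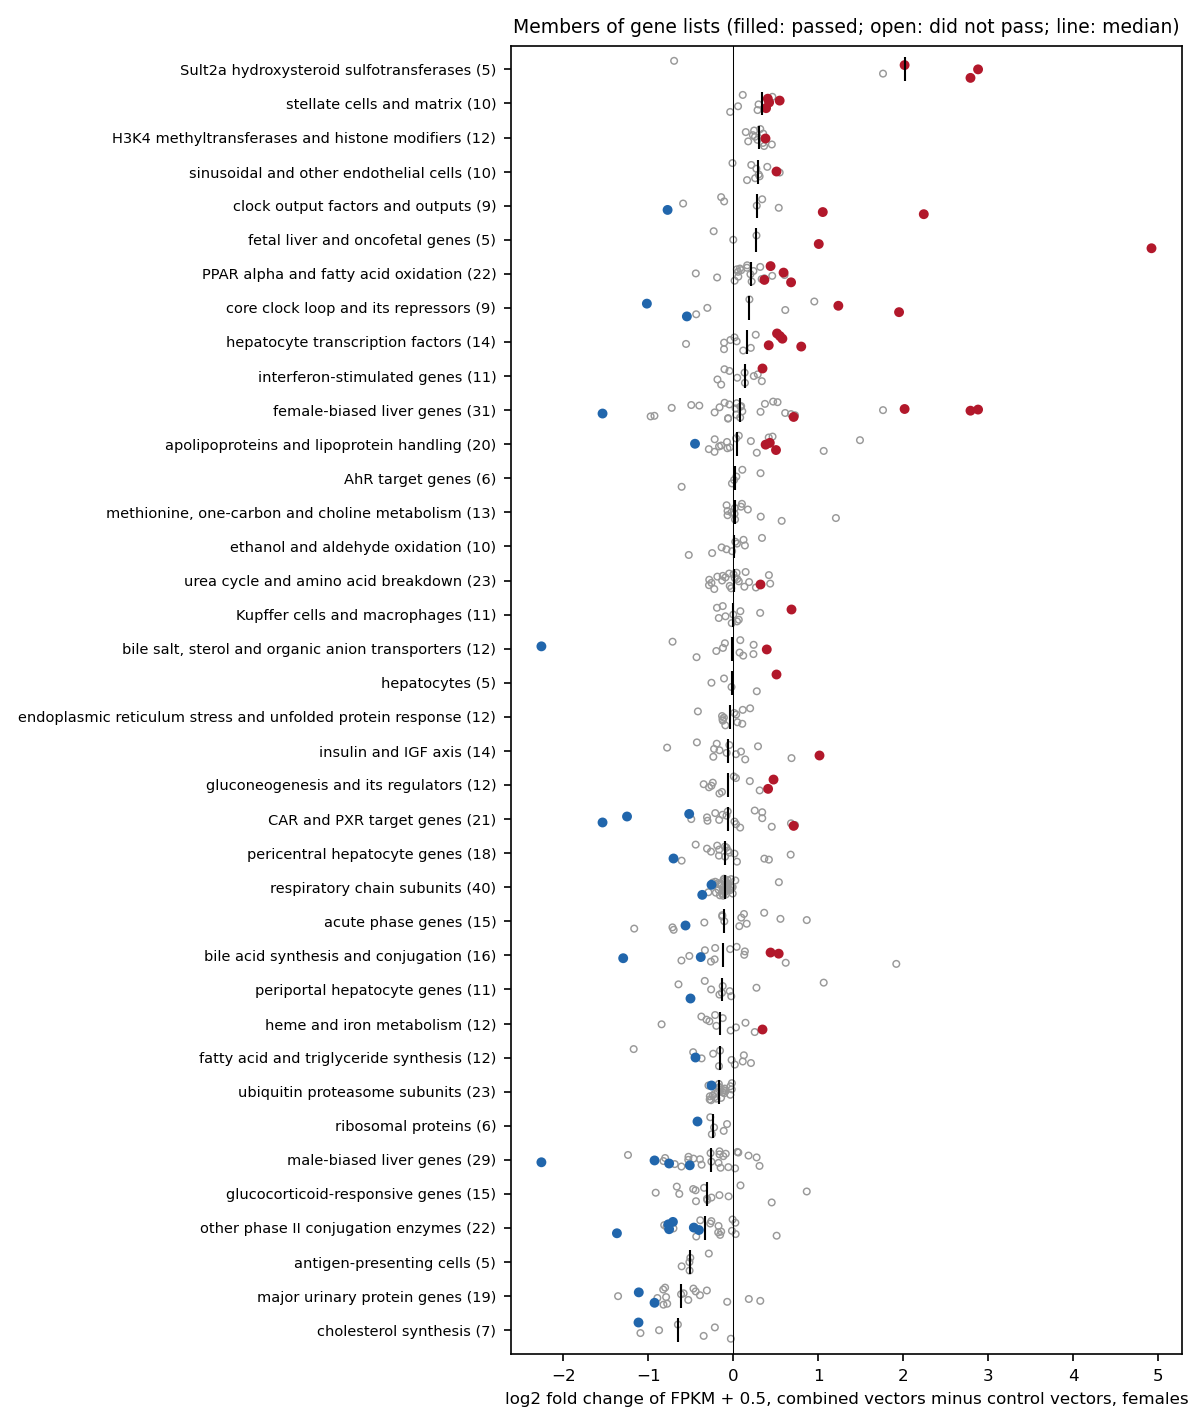
Each row is a gene list with at least 5 tested members (number in parentheses), and each circle a member placed by its log2 change in females under the combined vectors; filled red and blue circles passed higher and lower, open circles did not pass, and black lines are list medians. Sult2a has the highest median, 2.02, and cholesterol synthesis the lowest, -0.652, with 1 of its 7 members past the threshold.

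What the Kdm5 vectors added to the AhR vector was read by setting the combined group against the AhR vector alone. Here 16 of 2299 genes passed (0.696%), 12 higher (0.522%) and 4 lower (0.174%); the combined mice are shared with the comparison above, so the lists are not independent. Gpr146, a receptor that regulates secretion of lipoproteins by hepatocytes, was at 22.0, 21.03 and 20.9 FPKM with the combined vectors and 10.8, 11.1 and 13.9 FPKM with the AhR vector alone (0.82 ± 0.13, adjusted p = 0.00475). Spata2l was at 24.4, 24.0 and 25.6 FPKM and 12.5, 15.0 and 15.1 FPKM (0.78 ± 0.12, adjusted p = 0.00475). Fam47e, Nab2 and Exoc4, an exocyst subunit, were higher too, by 0.95, 0.78 and 0.73 on the log2 scale, and Acox2 by 0.54 ± 0.089 (adjusted p = 0.00553). Cyp3a44 was lower, 12.7, 10.1 and 6.59 FPKM against 26.3, 23.2 and 23.8 FPKM (-1.32 ± 0.28, adjusted p = 0.0314), and so was Nfil3 (-0.95 ± 0.19, adjusted p = 0.0238). Gpr146 and Spata2l passed in all 6 fits without 1 library, Nfil3 in 4, Fam47e in 3, Nab2 and Cyp3a44 in 2 and Exoc4 in 0. Exoc4 also did not pass with the length adjustment (adjusted p = 0.0514). Without single libraries the count ran from 5 (combined-vector mouse 3) to 36 (AhR-vector mouse 3); it was 6 without AhR-vector mouse 2 and 7 without combined-vector mouse 1 or 2.

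What the AhR vector added to the Kdm5 vectors was read against the Kdm5 vectors alone. There 48 genes passed (2.09%), 42 higher (1.83%) and 6 lower (0.261%). Dbp was at 9.47, 17.0 and 14.2 FPKM with the combined vectors and 2.24, 4.80 and 2.66 FPKM with the Kdm5 vectors alone (1.94 ± 0.44, adjusted p = 0.0252), and Per3 and Tef rose with it (1.35 ± 0.32, adjusted p = 0.0275 for Per3 and 0.80 ± 0.21, adjusted p = 0.0436 for Tef). Afp was higher again, 16.0, 25.2 and 21.4 FPKM against 10.3, 5.85 and 8.54 FPKM (1.30 ± 0.29, adjusted p = 0.0252). Abcb1a, the P-glycoprotein drug pump, was at 3.10, 3.51 and 4.95 FPKM and 1.84, 1.43 and 1.47 FPKM (1.05 ± 0.21, adjusted p = 0.0163). Control females had 3.46 ± 0.33 FPKM of Abcb1a, within the range of the combined group. Cox7a1, a cytochrome oxidase subunit known from muscle, was at 5.69, 2.99 and 3.03 FPKM and 0.74, 0.40 and 0 FPKM (2.36 ± 0.49, adjusted p = 0.0174), and Hacd4, of very long chain fatty acid synthesis, at 2.34, 2.09 and 1.97 FPKM and 0.72, 0.58 and 0.91 FPKM (1.10 ± 0.22, adjusted p = 0.0163). Nfil3 was lower, 10.3, 9.45 and 6.70 FPKM against 21.3, 15.2 and 21.03 FPKM (-1.08 ± 0.19, adjusted p = 0.0105). Of 6 fits without 1 library, Afp, Dbp and Cox7a1 passed in 2, Per3, Hacd4 and Abcb1a in 3 and Nfil3 in 4. With the length adjustment Cox7a1 and Nfil3 still passed, while Afp, Dbp, Per3, Hacd4 and Abcb1a did not. The count fell to 3 with the length adjustment; it was 1 without Kdm5-vector mouse 3, 4 without combined-vector mouse 2, 95 without Kdm5-vector mouse 1, and 0 in limma without combined-vector mouse 3, where 373 genes had an unadjusted p under 0.05.

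Most genes did not pass a test of whether the combined effect departed from the sum of the single effects on the log2 scale: 14 of 2299 did (0.609%), 8 above the sum and 6 below. Afp was the largest departure, -3.20 ± 0.41 (adjusted p = 0.000385), since each vector alone had raised it (by 3.62 and 4.50) and both together by 4.92. Nfil3 departed downward, by -1.26 ± 0.27, adjusted p = 0.0263, with single effects of 0.31 and 0.18 and a combined effect of -0.77. Tuba8, an alpha-tubulin, was raised by either vector, to 7.19 ± 1.90 FPKM and 4.79 ± 0.56 FPKM from 2.78 ± 0.74 FPKM, and was 3.53 ± 0.21 FPKM with both (departure -1.62 ± 0.29, adjusted p = 0.0141). Rtn4rl1, of the Nogo receptor family, had the same pattern (-1.27 ± 0.27, adjusted p = 0.0288), and Mavs had a departure of -0.68 ± 0.14, adjusted p = 0.0251. The converse was seen in Thrb, the thyroid hormone receptor beta of liver, at 5.70, 4.75 and 4.68 FPKM in controls, 3.87, 2.62 and 3.07 FPKM with the Kdm5 vectors, 5.27, 3.88 and 3.18 FPKM with the AhR vector and 6.49, 5.54 and 7.05 FPKM with both (departure 1.19 ± 0.22, adjusted p = 0.0143). Abcb1a and Srsf5, a splicing factor, also lay above the sum, by 1.45 ± 0.30 and 1.25 ± 0.25, but not clearly above control. Abcb1a was 3.46 ± 0.33 FPKM in controls, lower with either vector alone, and 3.85 ± 0.97 FPKM with both. Srsf5 was 102 ± 9.25 FPKM in controls and stayed below this with both, at 71.7 ± 15.7 FPKM. These tests use all 12 females, and the single effects share the control mice. The count was 1 without control mouse 1, 23 without control mouse 2, 8 without Kdm5-vector mouse 1, 9 without AhR-vector mouse 1 and 1 without combined-vector mouse 3.

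The same combined vectors were then compared between the sexes, as the female log2 change minus the male one. The difference passed for 136 of 2299 genes (5.92%), 104 with the higher change in females (4.52%) and 32 with the lower (1.39%). Afp was at 0.35, 0.34 and 0.17 FPKM in control males and 0.29, 0.16 and 0.64 FPKM in combined-vector males (log2 change 0.10 ± 0.29), and the difference was 4.82 ± 0.41, adjusted p = 4.61e-07. Igf2 changed by -0.24 ± 0.16 in males (difference 1.25 ± 0.23, adjusted p = 0.00902), Cyp3a44 by 0.078 ± 0.28 (difference -1.62 ± 0.39, adjusted p = 0.0189) and Nat8f1 by 0.22 ± 0.22 (difference -1.55 ± 0.32, adjusted p = 0.0111). The Cyp3a44 difference passed in 9 of 12 fits without 1 library and not with the length adjustment (adjusted p = 0.052). Acox2, which rose in females, changed by -0.055 ± 0.089 in males, and the difference was 0.59 ± 0.13, adjusted p = 0.012. The Sult2a genes did not pass: the difference for Sult2a1 was 2.61 ± 0.96, adjusted p = 0.0934, with a 95% interval of 0.62 to 4.60. Dbp changed by 2.17 ± 0.44 in males, and its difference of 0.068 ± 0.63 had an interval of -1.24 to 1.37; none of the clock genes tested passed for a sex difference.

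In further genes the female and male changes also had opposite signs. Of 82 genes that passed both in females and for the sex difference, 79 had a male log2 change of the other sign. Choosing genes by both tests favours this outcome, and a sign also counts male changes close to 0. The count is thus no measure of a reversal in males. H2-Ab1, a chain of the class II antigen-presenting complex, was at 34.0, 29.4 and 30.6 FPKM and 20.2, 18.9 and 26.9 FPKM in females and at 14.5, 14.3 and 10.8 FPKM and 21.7, 29.2 and 27.6 FPKM in males, control first (difference -1.48 ± 0.27, adjusted p = 0.00902). Cd74 and H2-Aa, its partners, had differences of -1.34 ± 0.26, adjusted p = 0.00973 and -1.45 ± 0.30, adjusted p = 0.0112. The metallothioneins Mt1 and Mt2, metal-binding proteins of the stress response, had male log2 changes of 0.83 ± 0.30 and 1.74 ± 0.51 and female ones of -0.64 ± 0.30 and -0.91 ± 0.51. Their sex differences passed in 3 and 4 of 12 fits without 1 library and not with the length adjustment (adjusted p = 0.0977 and 0.0733). Lpin1, a phosphatidate phosphatase, changed by 2.23 ± 0.50 in males and -0.47 ± 0.50 in females, a difference that passed in 5 of 12 such fits. Cd163 and Tlr12, a Toll-like receptor, were higher in combined-vector females and lower in combined-vector males than in their controls, with differences of 1.20 ± 0.27, adjusted p = 0.0142 and 1.65 ± 0.34, adjusted p = 0.0112. The tilt by transcript length also had opposite signs in the sexes, and after the length adjustment 51 differences passed, 26 and 25 in the 2 directions. Leaving out single mice gave 69 (combined-vector male 3), 82 (control male 1), 86 (control female 1) and 87 (combined-vector female 2) at the low end.

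**Figure D5:**
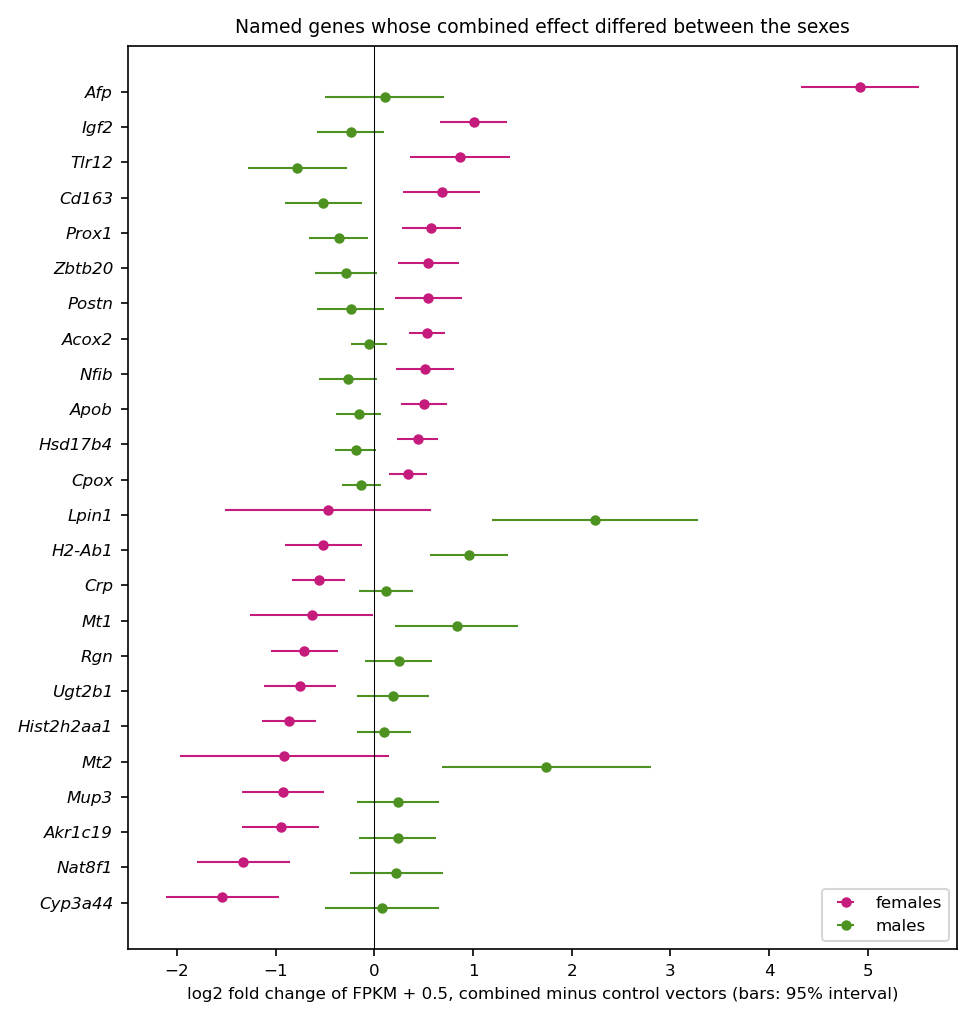
Log2 change under the combined vectors in females (pink) and males (green) with 95% intervals, 3 mice a group, for 24 named genes whose change differed between the sexes by limma's test of the difference. Afp has the widest gap, 4.92 in females and 0.10 in males, and Lpin1, Mt1, Mt2 and H2-Ab1 are among the genes above 0 in males only.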

How the data were processed

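RNA of 24 livers in 8 groups of 3 was sequenced, and groups were taken from the labels alone. Per the labels' protocols, total RNA was isolated with a Qiagen kit and libraries followed the sequencing provider's standard protocol; no strand setting is given in the sources used here. The authors deposited 1 table of FPKM values for 2372 genes, and the rule by which these genes were chosen is not stated, so adjusted p-values hold within this table. HISAT and Bowtie2 were used with build GRCm38.p6, per the submitters' processing notes; neither their versions nor how fragments were counted is stated there. No pair of libraries held identical values (0 pairs).

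From the FPKM values limma 3.58.1 in R 4.3.3 was run on log2(FPKM + 0.5), fitting group means with trend and robust options of its eBayes step, over genes with 1 FPKM or more in 3 or more libraries. The 16 residual degrees of freedom come from all 24 libraries. The script was tested on simulated data. Transcript lengths are those of the longest coding transcript in GENCODE M21, known for 2336 of 2372 genes, and positions and promoters are RefSeq's for GRCm38.p6, with 2358 genes matched. Named genes are the 15 highest and 15 lowest log2 changes of passing genes whose 6 libraries averaged at least 1 FPKM and whose groups did not overlap, then up to 4 members of each gene list with the lowest p among those that passed, then up to 8 genes with the largest changes for each other test, and Kdm5c. Genes outside this rule were named after their values were seen: Cyp1a2, Cyp7a1, Cyp2e1, Adh1, Fdps, Cyp51, Cd74, H2-Aa, Sult2a2, Sult2a8, Gstm6, Ugt2a3, Onecut1 and the clock genes that did not pass. Genes selected by 1 test are also given in others, such as Acox2, Tef and Mavs. The comparison, the lists and the rule were chosen with earlier results of these data known. Alternatives were another scaling, other filters and pseudocounts, library weights, fits on fewer libraries, each library left out in turn and, added after the data were seen, an adjustment for transcript length by a lowess curve in each library. A few genes that meet these rules are counted but not reported by name here.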

Additional observations from a re-analysis of the deposited data

Results flagged for a closer look

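The response to the combined vectors differed between females and males for 136 of 2299 genes by limma's test of the difference (female log2 change minus male log2 change, adjusted p under 0.05). Values here are that difference for 24 named genes among them, with positive values where the female change was the higher. No group had the 4 samples needed to look for single outlying mice.

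Among genes that rose in females, the difference was 4.82 for Afp, 1.25 for Igf2, 1.20 for Cd163, 0.941 for Prox1, 0.839 for Zbtb20, 0.784 for Nfib, 0.784 for Postn, 0.662 for Apob, 0.628 for Hsd17b4, 0.589 for Acox2 and 0.470 for Cpox, and 1.65 for Tlr12. Among genes that fell in females it was -1.62 for Cyp3a44, -1.55 for Nat8f1, -1.18 for Akr1c19, -1.17 for Mup3, -0.961 for Hist2h2aa1, -0.953 for Rgn, -0.942 for Ugt2b1 and -0.685 for Crp. The Cyp3a44 difference did not pass with the length adjustment (adjusted p = 0.052).

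For 4 genes the female change did not pass while the difference did: -2.71 for Lpin1, -2.65 for Mt2, -1.48 for H2-Ab1 and -1.47 for Mt1. With 1 of the 12 libraries left out in turn, the difference passed in 5 of 12 fits for Lpin1, 4 for Mt2 and 3 for Mt1, and with the length adjustment Mt1 and Mt2 did not pass (adjusted p = 0.0977 and 0.0733).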

How the results depend on the processing

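The count of 266 genes stayed within 1.5 times under rescaling by median ratios (314), no filter (271), a filter at 5 FPKM (238) and pseudocounts of 0.1 (250) and 1 (284). It was 594 with library weights (55.1% higher, against 67.3% as reported), 29 with the 12 female libraries (79.3%), 21 with the 6 libraries alone (57.1%) and 152 with the length adjustment (50.7%). Without 1 library it lay between 44 and 238. Against the AhR vector alone, where 16 passed, it was 37 with weights, 2 with 12 females, 0 with the 6 libraries alone (in limma 292 genes had an unadjusted p under 0.05) and 28 with the length adjustment, and 5 to 36 without 1 library. Against the Kdm5 vectors alone, where 48 passed, it was 3 with 12 females, 0 with the 6 libraries alone (438 unadjusted), 3 with the length adjustment, and 0 to 95 without 1 library. The departure from the sum had 1 gene with the 12 females, which are also its compared groups, and 1 to 23 without 1 library. The sex difference had 211 after rescaling, 384 with weights, 51 with the length adjustment, and 69 to 186 without 1 library. The cause of these shifts was not tested. The restricted fits hold fewer libraries and also take the spread from fewer groups.

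Of 76 named genes of the comparison with control vectors, no passing gene turned its direction under any of these alternatives. Kdm5c, which had not passed, changed sign with the length adjustment (-0.187), without control mouse 2 (-0.0295) and without combined-vector mouse 2 (-0.0722), and ran up to 0.124 when another library was left out. Calls were lost for 63 genes with 12 females, for 63 with the 6 libraries alone, for 33 with the length adjustment and for 58 without control mouse 1. No paired analysis was possible because replicate numbers were given in accession order and the labels pair no mice across groups. FPKM removes read depth, so the counting error of low genes such as Igf2, Per3 and Cntnap1 is unknown.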

Other observations

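In females given the combined vectors, several further gene groups held 0 or 1 gene that passed in limma, where 11.6% of all genes tested passed. Of 15 glucocorticoid-responsive genes, 12 had log2 changes below 0 (median -0.309), and 2 had an unadjusted p under 0.05. Of 12 genes of the unfolded protein response and 4 heat shock genes, 0 had an unadjusted p under 0.05, and the medians were -0.0412 and -0.00395. Of 13 genes of methionine, one-carbon and choline metabolism 2 had an unadjusted p under 0.05 (median 0.0209). Of 23 genes of the urea cycle and amino acid breakdown Got2, the mitochondrial aspartate aminotransferase, was the 1 that rose (median 0.00282), and of 12 genes of heme and iron metabolism Cpox, an enzyme of heme synthesis, rose (median -0.161). Of 14 genes of the insulin and IGF axis Igf2 was the 1 that rose (median -0.0618). Markers of bile duct cells, red cells and lymphocytes were few in the table, with 3, 4 and 1 tested, and none of these passed or had an unadjusted p under 0.05.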
